A study of Mus musculus with 13 samples.

Results

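The genes of adult hippocampal neurogenesis were read in the hippocampus of wild type and Tmem184b-mutant mice at 5 and 15 months of age. The set held 8 of the 25025 genes in the tables, taken by name: Eomes, Neurod1, Sox4, Sox11, Dcx and Igfbpl1, which mark intermediate progenitors, neuroblasts and immature granule cells, and Mki67 and Top2a, which mark dividing cells. Total RNA was extracted with Trizol from dissected hippocampi and sequenced in paired ends, 1 library per mouse, for 13 libraries in all. Wild type mice were C57BL/6, 4 of them at 5 months and 3 at 15 months. Mutant mice carried the Tmem184b gene-trap allele in every tissue on the C57BL/6 background, with 3 mice at each age, so that a value cannot be assigned to loss of the gene in any one cell type. Per the methods, mice of both sexes were used, but the 15-month wild types were all female and the 15-month mutants were not, so sex and genotype cannot be fully told apart at that age. Mice with the same number in different groups were different animals.

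In the adult dentate gyrus, neural stem cells with a radial process divide slowly in the subgranular zone and give rise to intermediate progenitors, which divide quickly. Their daughters leave the cell cycle, become neuroblasts and then immature granule neurons, and a fraction survive to join the mature granule cells, which keep the transcription factor Prox1. Each step has its own genes: Eomes (Tbr2) is a T-box factor of the intermediate progenitor, Neurod1 is a basic helix-loop-helix factor needed for the survival and maturation of new granule cells, Sox4 and Sox11 are SoxC factors that turn on neuronal genes in committed cells, and Dcx encodes doublecortin, a microtubule-binding protein of migrating and growing young neurons. Mki67 encodes the Ki-67 protein that coats mitotic chromosomes, and Top2a encodes the DNA topoisomerase that separates sister chromatids. Such cells are a small part of the hippocampus, and in bulk RNA fewer cells of a type and less RNA per cell cannot be told apart. Several of these genes are also active elsewhere: Neurod1 and Sox11 in mature neurons, Dcx in some mature neurons, Sox4 in glial cells.

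The level used throughout is the normalized count, a count estimated per gene and divided by a size factor of the library. The 2 ages were normalized separately, so levels at 5 and 15 months stand side by side below without a test. Tmem184b itself was at 2329 to 2475 in the 5-month and 2346 to 2413 in the 15-month wild types, and at 31.3 to 45.0 and 29.4 to 57.8 in the mutants. The tissue held mature granule cells in every mouse, with Prox1 between 993 and 1932. Genes of earlier cells of the lineage were at unlike levels. Sox2, a stem cell factor also made by astrocytes, was at 1305 to 1719. Of the progenitor factors, Neurog2 was at 30.1 to 83.6 and Neurod4 at 0 to 8.20, so these values alone do not show how many such cells were present. The choroid plexus is a secretory tissue outside the hippocampus, and its 15 marker genes summed to 3544 to 170256 in the 5-month wild types, with replicate 2 at the low end, against 961 to 3401 in the 5-month mutants. The same sum was 1093 to 2394 in the 15-month wild types and 985 to 29880 in the 15-month mutants.

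None of the 8 genes passed the test between genotypes at either age. Sox11 was 1.43-fold higher in the mutants at 5 months and its groups did not overlap, and Dcx, Sox4 and Mki67 were 0.77, 0.82 and 0.68 times the wild type level at 15 months, again without overlap, but all 4 values missed the threshold after adjustment over all genes. The test was limma on log2(normalized count + 1), with a gene called at an adjusted p under 0.05, and it ran on genes with a mean normalized count of at least 10. At 5 months 0 of 8 genes were called, 1 had an unadjusted p under 0.05, and 1 did not overlap, while 2.27% of all genes tested were called, 18.5% did not overlap in either direction, and 9.30% did not overlap with the mutants higher. At 15 months 0 of the 7 genes tested were called, 1 had an unadjusted p under 0.05, and 3 did not overlap, all with the mutants lower, against 6.02% of all genes called, 34.1% without overlap in either direction and 17.7% without overlap with the mutants lower. Top2a was below the mean of 10 at 15 months and was not tested there. The median log2 difference of the 8 genes was -0.14 at 5 months, where that of all genes was 0.00, and the median of the 7 genes was -0.37 at 15 months, where that of all genes was 0.02.

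**Figure D1:**
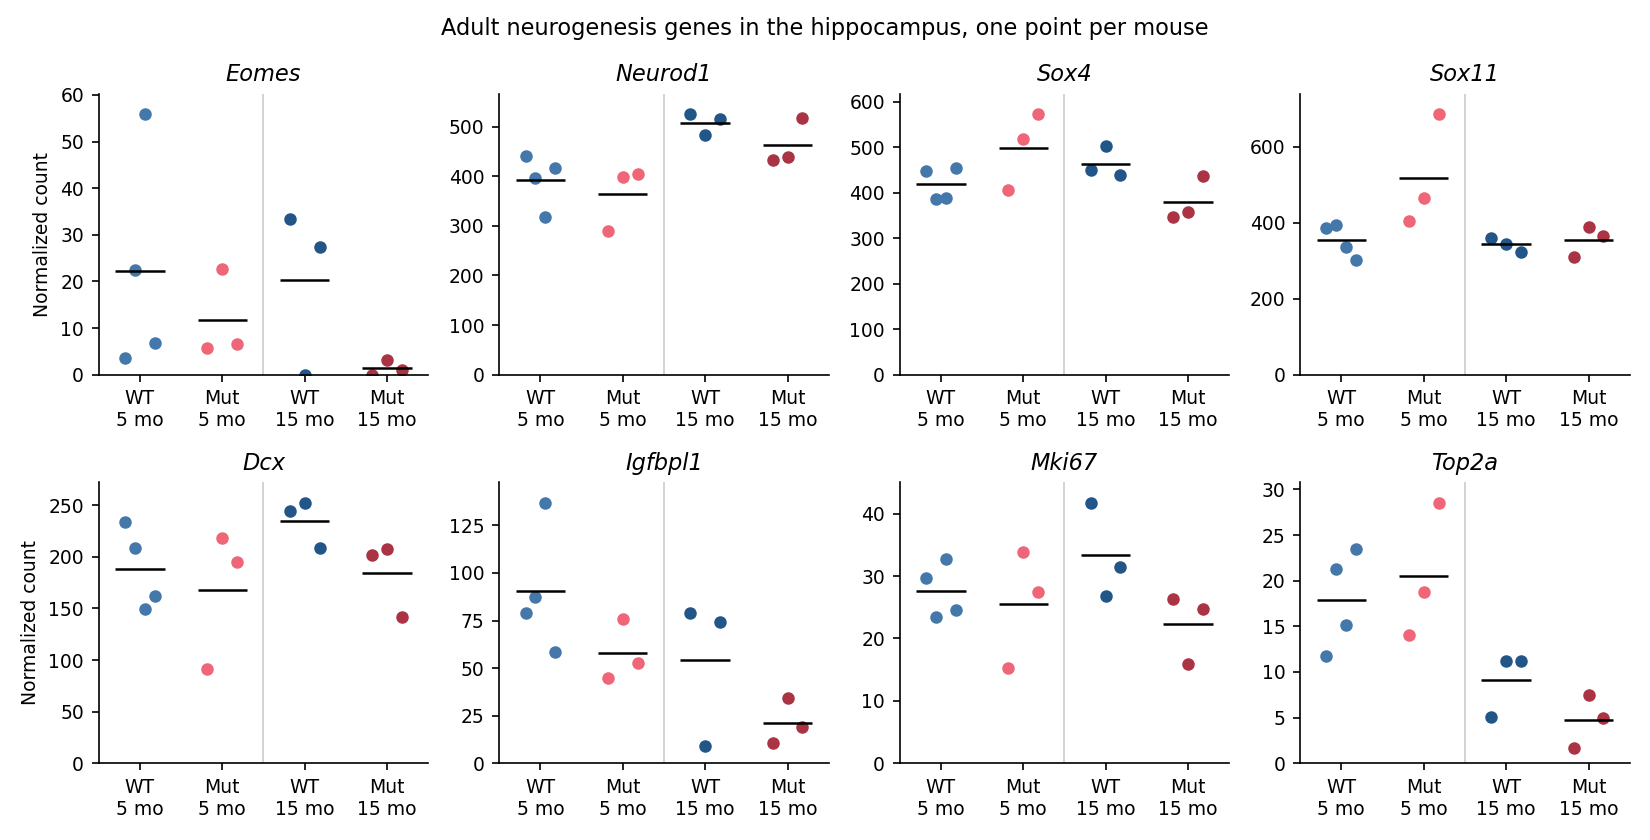
Normalized count of each of the 8 genes in every mouse, by genotype and age, with a horizontal line at the group mean; each panel has its own axis from 0, and the grey line separates the ages, which were normalized separately. Sox11 at 5 months and Dcx, Sox4 and Mki67 at 15 months are the 4 panels in which the genotypes do not overlap, and Eomes reaches 0 in 1 wild type and 1 mutant at 15 months.

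Per kilobase of the longest annotated transcript, which allows levels of different genes to be compared, Neurod1 was the highest of the 8 and the genes of dividing cells were among the lowest. In the 5-month wild types the medians per kilobase were 149 for Neurod1, 87.2 for Sox4, 43.4 for Sox11, 29.0 for Igfbpl1, 20.4 for Dcx, 4.13 for Eomes, 3.48 for Top2a and 2.69 for Mki67. The 15-month wild types kept Neurod1, Sox4 and Sox11 at the top, with medians of 189, 94.1 and 41.5, and Igfbpl1 and Dcx were close to each other at 26.0 and 26.9. The last 3 genes were low enough that single mice changed their order. The spread between mice also differed among the genes: in the 5-month wild types the SD was 8.77% of the mean for Sox4, 12.4% for Sox11 and 13.6% for Neurod1, but 36.9% for Igfbpl1 and 108% for Eomes.

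Eomes, the factor of the intermediate progenitor, was the most variable of the 8. It was at 3.58, 22.5, 55.8 and 6.88 in the wild types and at 5.81, 22.7 and 6.52 in the mutants at 5 months, so the genotypes overlapped across nearly their whole range. At 15 months it was at 33.5, listed at 0 and at 27.4 in the wild types and listed at 0, at 3.19 and at 0.991 in the mutants. The mutants were all below 2 of the 3 wild types and above the remaining one or equal to it. The limma log2 difference was -0.47 (95% interval -2.30 to 1.35) at 5 months and -2.29 (-5.26 to 0.67) at 15 months, with adjusted p-values of 0.795 and 0.281, and the second value depends on the constant added before the logarithm because 2 libraries are at 0: it was -1.16 with 10 in place of 1. Without wild type replicate 2, the one at 0, it was -3.95 (adjusted p = 0.120). Without wild type replicate 1 or replicate 3 the mean of Eomes fell under 10 and it was not tested. Eomes thus passed the filter at 15 months only through the wild types in which it was high, and the difference there rests on them. The position of Eomes is chromosome 9, 118478212 to 118486132, on the plus strand (GRCm38).

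Neurod1, which carries new granule cells to maturity, was nearly level between the genotypes. The 5-month wild types were at 440.4, 396, 317 and 416 and the mutants at 290.4, 397 and 405. The 15-month wild types were at 525, 483 and 515 and the mutants at 432, 439 and 518. The lowest mouse at each age was a mutant, but the groups overlapped at both. The limma log2 difference was -0.11 (95% interval -0.45 to 0.23, adjusted p = 0.731) at 5 months and -0.14 (-0.38 to 0.11, adjusted p = 0.436) at 15 months, so a fall to below 0.73 times the wild type level lies outside both intervals. Neurod1 lies on chromosome 2, 79452521 to 79456751, on the minus strand.

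The SoxC factors Sox4 and Sox11 had higher means in the mutants at 5 months, and neither difference passed the test. Sox11 was at 386, 394, 335 and 301 in the 5-month wild types and at 404, 465 and 685 in the mutants. Each mutant was above every wild type, by a narrow margin for replicate 1 and by a wide one for replicate 3. Its limma log2 difference was 0.52 (SE 0.17, 95% interval 0.13 to 0.90), with an adjusted p of 0.128, and the exact two-sided permutation test of the log2 values gave p = 0.057, the smallest that 4 against 3 mice allow. Without mutant replicate 1 the difference was 0.68 and passed the test (adjusted p = 0.0487), and without mutant replicate 3 it was 0.30 (adjusted p = 0.348), so the call rests on which mutant is kept. The wild type with the lowest choroid plexus sum, replicate 2, had the highest wild type Sox11; the part of that tissue in the difference was not tested.

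At 15 months Sox11 was at 360.4, 345 and 323 in the wild types and at 311, 388 and 365 in the mutants. The mutants spanned the wild types on both sides, with a limma log2 difference of 0.04 (95% interval -0.23 to 0.32, adjusted p = 0.837). Sox4 was at 448, 386, 389 and 454 in the 5-month wild types and at 407, 519 and 573 in the mutants, of which 2 were above every wild type and 1 was within their range. Its limma log2 difference there was 0.24 (95% interval -0.05 to 0.54, adjusted p = 0.337).

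Sox4 was lower in each 15-month mutant than in any wild type of that age, by a difference that missed the threshold. The wild types were at 451, 504 and 438 and the mutants at 347, 357 and 436, so the highest mutant lay just under the lowest wild type. In the limma fit the log2 difference was -0.29 (SE 0.12, 95% interval -0.57 to -0.02) with an adjusted p of 0.154, and the exact permutation p was 0.1, the smallest possible with 3 mice against 3. Of the 8 genes, Sox4 came closest to a genotype difference that itself differed between the ages. The interaction term of limma over all 13 libraries, in which each age keeps its own wild types, was -0.54 for Sox4 (95% interval -0.93 to -0.14, adjusted p = 0.127) and -0.47 for Sox11 (-0.97 to 0.02, adjusted p = 0.259). Without 5-month mutant replicate 1 the Sox4 term was -0.68 and passed the test (adjusted p = 0.0200). After a correction for transcript GC content and length, given below, the Sox4 term was -0.44 (limma adjusted p = 0.275). The Sox11 term was then -0.14 (adjusted p = 0.786), and the Dcx term turned to 0.17. Before that correction all 8 terms were below 0, with a median of -0.44 against 0.02 for all genes, yet 0 of 8 were called and 1 had an unadjusted p under 0.05, where 1.73% of all genes were called. These 8 terms share the same mice and are not independent of each other. They include Top2a (-1.10), which was too low to be tested at 15 months and entered this fit through its 5-month levels. They also include Eomes (-1.82), which passed the filter at 15 months only through the wild types in which it was high. The shared sign and the median thus rest in part on genes let in by the groups in which they were high.

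The 250 bases before the RefSeq start (GRCm38.p6) are shown for the SoxC pair because their levels varied together more than those of most pairs of the set. Capitals mark CCAAT, the box read by the factor NF-Y, and TTTGAA, the core of the cell cycle homology region, each on either strand, and no match overlapped another. Sox4 lies at chr13:28953700-28953949 and Sox11 at chr12:27342719-27342968, both on the minus strand.
Sox4: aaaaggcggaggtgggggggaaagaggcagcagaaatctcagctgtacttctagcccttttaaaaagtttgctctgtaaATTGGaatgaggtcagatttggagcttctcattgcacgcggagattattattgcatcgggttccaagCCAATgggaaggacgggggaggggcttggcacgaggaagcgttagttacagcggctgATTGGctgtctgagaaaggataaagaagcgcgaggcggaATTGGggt
Sox11: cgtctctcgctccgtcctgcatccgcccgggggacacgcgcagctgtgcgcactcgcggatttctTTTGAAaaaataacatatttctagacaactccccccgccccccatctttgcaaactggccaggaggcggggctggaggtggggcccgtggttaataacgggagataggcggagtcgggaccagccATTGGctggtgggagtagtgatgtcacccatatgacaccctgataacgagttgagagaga
The Sox4 window held 4 matches to CCAAT and 0 to TTTGAA, and the Sox11 window held 1 of each. Of 32851 RefSeq promoter windows of this length, 33.8% held CCAAT and 16% held TTTGAA at least once.

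Dcx, the standard marker of neuroblasts and immature neurons, was lower in every older mutant, by a difference that missed the threshold. It was at 234, 209, 149.7 and 162 in the 5-month wild types and at 91.4, 218 and 195 in the mutants. Mutant replicate 1 was far below every other mouse, and the other 2 mutants were within the wild type range. The limma log2 difference was -0.24 (SE 0.28, 95% interval -0.86 to 0.38, adjusted p = 0.692), and it turned to 0.15 without mutant replicate 1. At 15 months Dcx was at 244, 252 and 209 in the wild types and at 202, 208 and 142 in the mutants, with the lowest wild type (208.8) and the highest mutant (208.0) almost touching. The limma log2 difference was -0.37 (SE 0.18, 95% interval -0.77 to 0.03, adjusted p = 0.202; exact permutation p = 0.1), and -0.19 without mutant replicate 3. The interval reaches from 0.59 to 1.02 times the wild type level. Dcx lies on chromosome X, 143855842 to 143933311, on the minus strand. The sexes were uneven at 15 months, and their part in the difference was not tested.

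Igfbpl1, a secreted insulin-like growth factor binding protein-like protein found in neuroblasts, was lower on average in the mutants at both ages and overlapped at both. The 5-month wild types were at 78.7, 87.3, 136.9 and 58.4 and the mutants at 44.7, 76.0 and 52.6. The 15-month wild types were at 78.9, 8.90 and 74.4 and the mutants at 10.7, 34.1 and 18.9. Only 1 wild type, replicate 2 at 15 months, was low, and it lay under every mutant of its age. For Igfbpl1 limma gave a log2 difference of -0.60 (95% interval -1.26 to 0.05, adjusted p = 0.282) at 5 months and -0.96 (-2.66 to 0.74, adjusted p = 0.435) at 15 months. The second value was -1.95 (adjusted p = 0.120) without wild type replicate 2 and -0.44 (adjusted p = 0.790) without wild type replicate 1. The gene lies on chromosome 4, 45809468 to 45826923, on the minus strand.

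**Figure D2:**
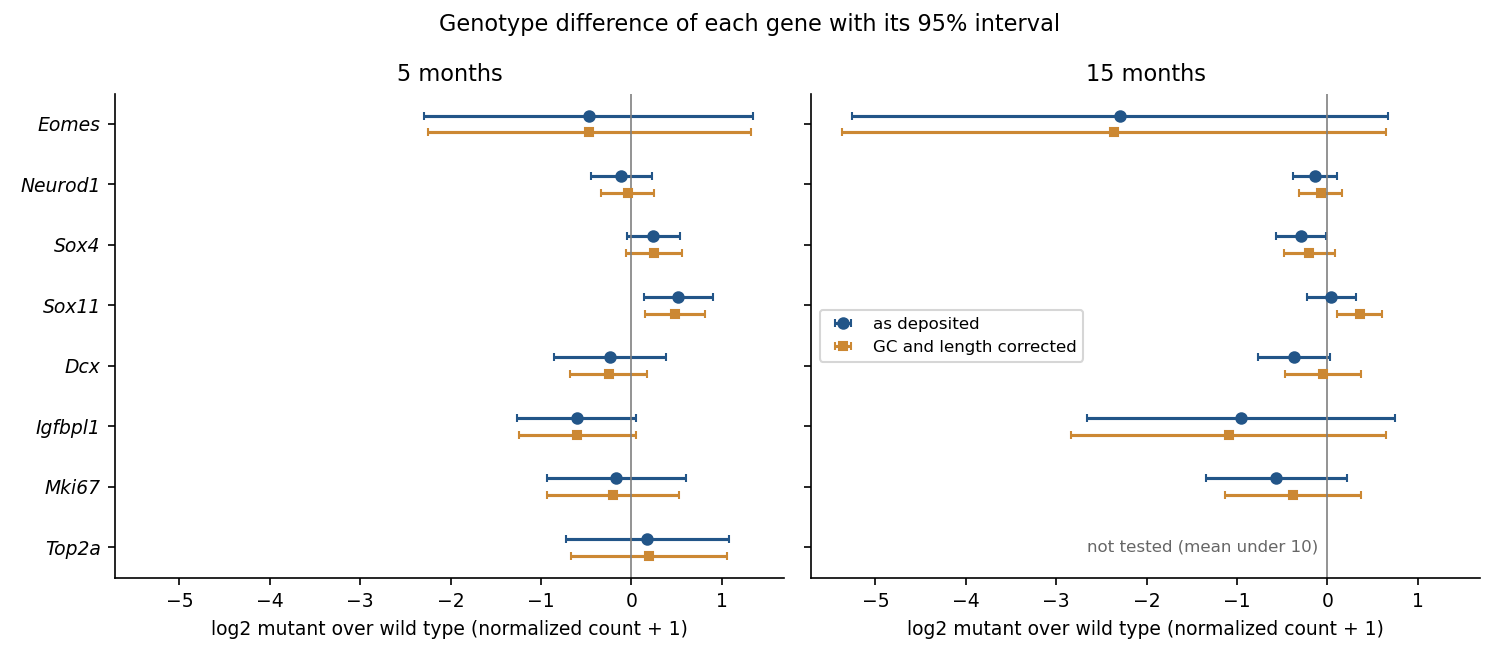
Genotype difference of each gene, as log2 of mutant over wild type normalized counts plus 1 (limma estimate, points) with its 95% interval (bars), at 5 months on the left and 15 months on the right, as deposited (blue circles) and after a correction for transcript GC content and length (orange squares). As deposited, only Sox11 at 5 months (0.13 to 0.90) and Sox4 at 15 months (-0.57 to -0.02) have intervals that leave out 0, and neither passed the adjusted threshold; the interval for Eomes is the widest.

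The 2 genes of dividing cells overlapped between the genotypes at 5 months, and both had wide intervals that held 0. Mki67 was at 29.6, 23.4, 32.8 and 24.5 in the 5-month wild types and at 15.2, 33.9 and 27.5 in the mutants, which included both the lowest and the highest mouse. Top2a was at 11.7, 21.2, 15.1 and 23.5 in the wild types and at 14.1, 18.8 and 28.5 in the mutants of that age, again with overlap. The limma log2 differences were -0.17 (95% interval -0.94 to 0.61, adjusted p = 0.835) for Mki67 and 0.18 (-0.72 to 1.07, adjusted p = 0.851) for Top2a. Both intervals are wide enough to hold a fall to 0.61 times the wild type level, so the test leaves a change of that size undecided.

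Mki67 was lower in each 15-month mutant than in any wild type of that age, by a difference that missed the threshold. Of all genes tested, 17.7% were lower without overlap there. Mki67 was at 41.8, 26.8 and 31.5 in the wild types and at 26.4, 15.9 and 24.7 in the mutants, so the lowest wild type and the highest mutant differed by a small margin. By limma the log2 difference was -0.56 (SE 0.35, 95% interval -1.34 to 0.22, adjusted p = 0.312; exact permutation p = 0.1). Top2a was at 5.08, 11.1 and 11.2 in the wild types and at 1.65, 7.45 and 4.95 in the mutants, where 2 of the 3 mutants were below every wild type. The exact permutation test of its log2 values gave p = 0.2. Mki67 lies on chromosome 7, 135689784 to 135716361, and Top2a on chromosome 11, 98992943 to 99024189, both on the minus strand.

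The promoters of Mki67 and Top2a are shown because both hold the elements known from genes of the late cell cycle, while their levels did not rise together across these libraries (Pearson r = -0.00 after centring on age and -0.37 after centring on each group, n = 13). Capitals mark CCAAT and TTTGAA as above. Mki67 lies at chr7:135716380-135716629 and Top2a at chr11:99024190-99024439, both on the minus strand.
Mki67: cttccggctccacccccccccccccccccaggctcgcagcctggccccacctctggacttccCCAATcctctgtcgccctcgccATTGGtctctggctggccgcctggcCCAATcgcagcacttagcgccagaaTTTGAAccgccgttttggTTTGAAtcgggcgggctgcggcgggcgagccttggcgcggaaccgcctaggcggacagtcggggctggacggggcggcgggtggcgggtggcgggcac
Top2a: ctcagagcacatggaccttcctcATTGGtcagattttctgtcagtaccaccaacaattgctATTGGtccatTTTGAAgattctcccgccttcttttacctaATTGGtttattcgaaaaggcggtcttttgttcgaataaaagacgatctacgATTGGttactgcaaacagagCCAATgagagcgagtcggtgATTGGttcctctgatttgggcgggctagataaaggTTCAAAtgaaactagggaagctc
The Mki67 window held 3 matches to CCAAT and 2 to TTTGAA, and the Top2a window held 6 and 2. Of the 7 genes with a RefSeq promoter, 6 held CCAAT and 3 held TTTGAA in at least 1 window. Eomes held 2 CCAAT matches, Neurod1 held neither motif, and Dcx, with 2 starts, held 1 CCAAT match before one of them.

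Transcript composition moved with the genotype difference at 15 months. Over 15313 genes the log2 difference rose with the GC content of the longest transcript (Spearman rho 0.49) and fell with its length (rho -0.42), from a median of -0.18 in genes around 38.4% GC to 0.25 in genes around 61.4%. At 5 months the same rho values were 0.14 and 0.10. Dcx has 1 of the longest and most AT-rich transcripts of the set, at 9074 bases and 40.6% GC, against medians of 3364 bases and 50.0% over all genes. After a correction for both, its 15-month difference was -0.05 (adjusted p = 0.928), compared with -0.37 before. Sox4, at 4795 bases and 51.1% GC, went from -0.29 to -0.20 (adjusted p = 0.541), Mki67, at 10061 bases and 46.6% GC, from -0.56 to -0.38 (adjusted p = 0.671), and Sox11, at 8311 bases and 46.5% GC, from 0.04 to 0.36 (adjusted p = 0.221). The 5-month differences of Dcx, Sox4 and Sox11 hardly moved, to -0.25, 0.25 and 0.48. Whether the trend with composition comes from RNA quality, library preparation or the mice was not tested.

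**Figure D3:**
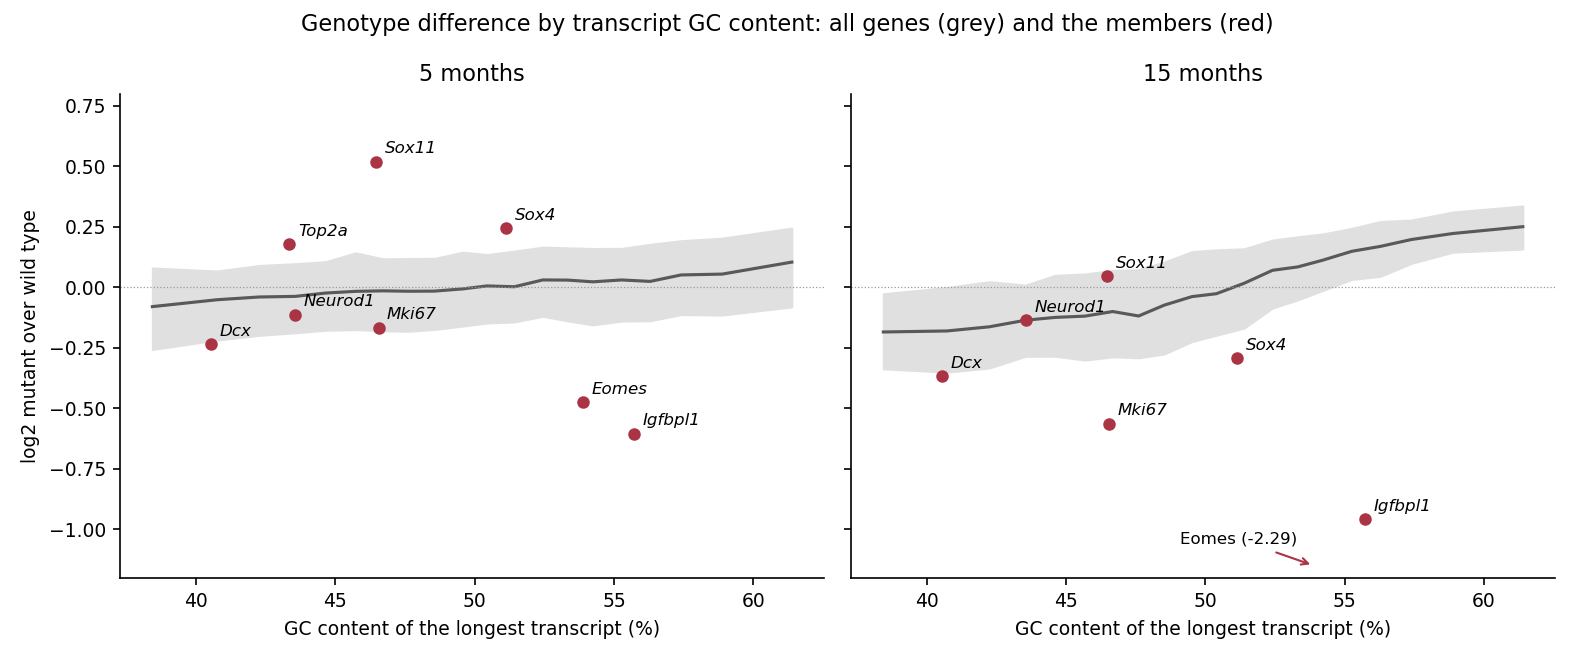
Genotype difference, as log2 of mutant over wild type, against the GC content of the longest transcript in percent, at 5 months on the left and 15 months on the right; the grey line is the median and the grey band the quartiles of all genes in bins of GC content, and the red points are the neurogenesis genes. At 15 months the grey line climbs from -0.18 to 0.25, Dcx lies near the lower quartile of its neighbours in GC content, and Mki67, Sox4, Igfbpl1 and Eomes lie below the band; Eomes, at -2.29, is beyond the axis.

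Mature granule cells were read in the same libraries through Prox1, which is also made by immature granule cells and some interneurons. Prox1 was at 1226, 1378, 1271 and 1514 in the 5-month wild types and at 993, 1888 and 1594 in the mutants. The 15-month wild types were at 1924, 1821 and 1932, and the mutants, at 1113, 1662 and 1593, were all lower, with a limma log2 difference of -0.40 (adjusted p = 0.0941) that shrank to -0.05 once GC content and length were corrected for. The neuronal gene Rbfox3 went the other way at that age, at 11525 to 12559 in the wild types and 13934 to 15786 in the mutants (limma log2 difference 0.29, adjusted p = 0.0497; corrected in that way it was 0.09, adjusted p = 0.631).

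Set against Prox1 in the same library, Dcx, Sox4 and Mki67 overlapped between the genotypes at 15 months. Dcx per 1000 of Prox1 was 127, 139 and 108 in the wild types and 181, 125 and 89.0 in the mutants, which lay on both sides. Sox4 per 1000 of Prox1 was 234, 277 and 227 against 312, 215 and 274, and Mki67 was 21.7, 14.7 and 16.3 against 23.7, 9.59 and 15.5. Sox11 was then the 1 gene of 8 without overlap, higher in the mutants at 279, 233 and 229 per 1000 of Prox1 against 187, 189 and 167, but since Prox1 was itself lower in these mutants, 45.2% of all genes tested were higher without overlap on this scale. At 5 months 0 of 8 genes were without overlap per Prox1, against 4.90% of all genes in either direction. With Rbfox3 as the denominator, 5 of 8 genes (Dcx, Sox4, Sox11, Neurod1 and Mki67) were lower without overlap in the 15-month mutants, where 43.2% of all genes were, and 0 at 5 months, where 18.7% of all genes did not overlap in either direction. The levels of Prox1 and Rbfox3 moved a large share of all genes in this way, so neither count is a result about these 8 genes, and for Sox11 the direction turned with the denominator.

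**Figure D4:**
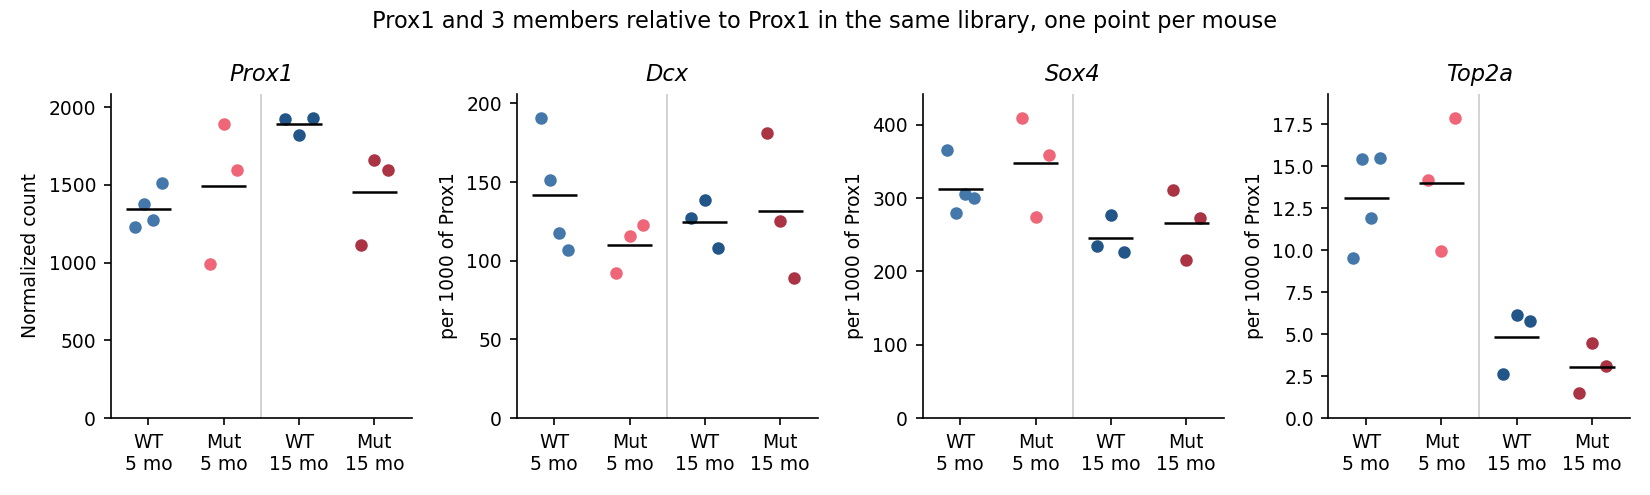
Normalized count of Prox1 (left panel) and of Dcx, Sox4 and Top2a per 1000 of Prox1 in the same library, 1 point per mouse by genotype and age, with a horizontal line at the group mean and every axis from 0. Prox1 is lower in all 3 of the 15-month mutants, the ratios of Dcx and Sox4 overlap between genotypes at both ages, and the ratio of Top2a is lower at 15 than at 5 months in both genotypes.

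A ratio within a library also lets the ages be placed side by side, though not tested. In wild types Top2a per Prox1 was lower in every 15-month mouse than in any 5-month mouse. It was 9.55, 15.4, 11.9 and 15.5 per 1000 of Prox1 at 5 months and 2.64, 6.12 and 5.79 at 15 months, a log2 ratio of -1.31 with an SD of 0.42 between mice, or -0.49 per Rbfox3. Prox1 itself was at 1226 to 1514 in the 5-month and 1821 to 1932 in the 15-month wild types, and a higher denominator lowers each ratio. The share of all genes lower in this way was not computed. Top2a at 15 months was under the mean of 10 that the test required. The 5-month wild types were of both sexes and the 15-month ones all female, so age and sex cannot be fully told apart. Igfbpl1 had a lower ratio per Prox1 (-1.61, SD 1.12) with 1 mouse far below the rest. Sox11 was -0.53 (SD 0.23) per Prox1 but -0.04 per Rbfox3, Mki67 was -0.22 against 0.19, and Dcx was -0.16 against 0.32. For Dcx, Sox4, Neurod1 and Mki67 the sign turned with the denominator, so no order of the ages can be read for them.

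Across the 13 libraries some of the genes varied together. Centred on the mean of each age, the log2 levels of Igfbpl1 and Eomes correlated at r = 0.93, Dcx and Neurod1 at 0.65, Dcx and Mki67 at 0.56, Sox4 and Neurod1 at 0.56, and Sox4 and Sox11 at 0.55. The wild type that was low in Igfbpl1 at 15 months was also the one listed at 0 for Eomes. These are descriptions over libraries that share a dissection, a depth and a base composition each, and Eomes in particular is at few counts.

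**Figure D5:**
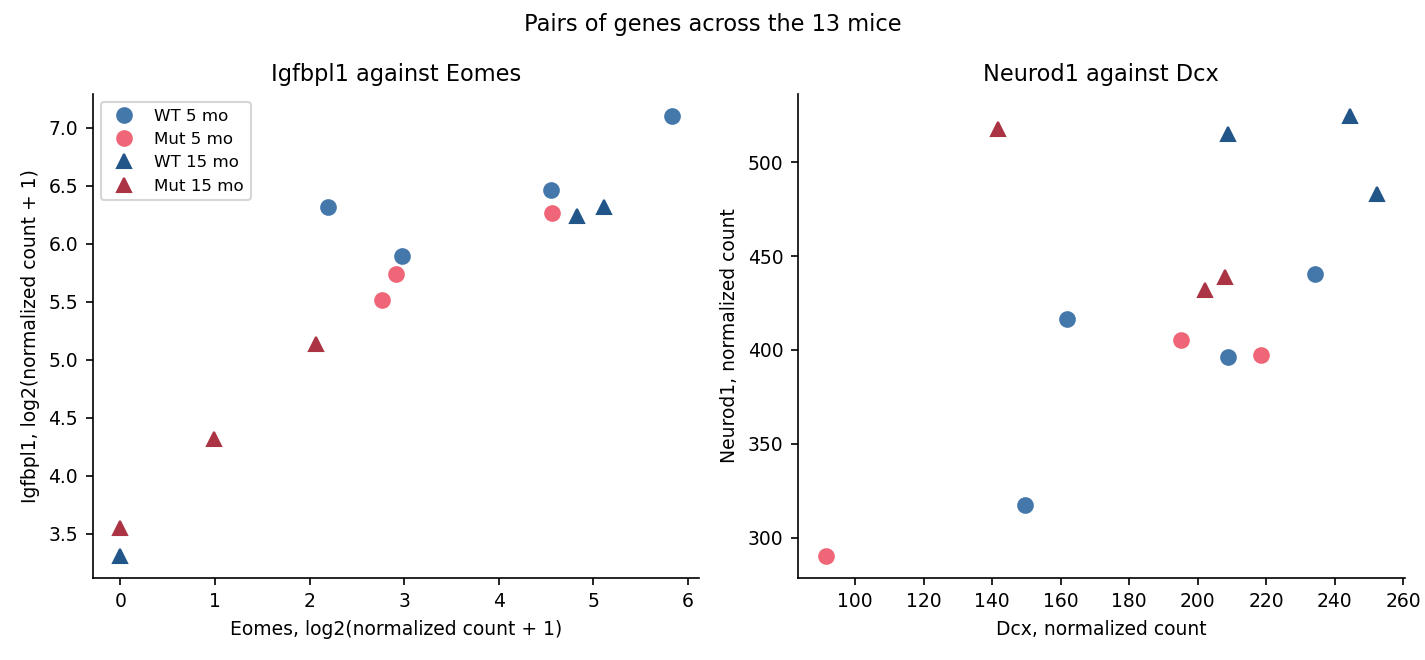
Igfbpl1 against Eomes as log2(normalized count + 1) on the left and Neurod1 against Dcx as normalized counts on the right, 1 point per mouse, coloured by genotype and shaped by age. The 3 mice lowest in Igfbpl1, a wild type and 2 mutants of 15 months, are also the 3 lowest in Eomes, with values of 0, 0 and 0.991 for the normalized count of Eomes.

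The genes most like Dcx across all 15340 genes compared were outside the lineage lists. They were Lars (r = 0.96), a leucyl-tRNA synthetase, Nyap2 (0.96), a neuronal adaptor of phosphoinositide 3-kinase, Adss (0.95), an enzyme of adenine nucleotide synthesis, Lnpk (0.93), a protein of the endoplasmic reticulum, and Tfrc (0.93), the transferrin receptor. Nyap2 was at 73.5 in the 5-month mutant replicate 1 that was also lowest in Dcx, and at 304 to 351 in the 15-month wild types. The transcripts of all 5 are below the median GC content of 50.0%, from 36.2% to 47.0%. The genes most like Mki67 were Ano6 (0.91), a membrane lipid scramblase, Ctxn3 (0.90), Sorcs1 (0.87), a sorting receptor, Havcr2 (0.84), an immune receptor, and Efcab5 (0.83), and no gene of the cell cycle was among them.

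The wider lists of the lineage showed few calls. Of 23 genes of stem and radial glia-like cells tested, 2 were called at 5 months and 0 at 15 months. Gfap, an intermediate filament of astrocytes and radial stem cells, was at 15208 to 18283 in the wild types and rose to 23673 to 25996 in the mutants (limma log2 difference 0.54, adjusted p = 0.0235). Id4, an inhibitor of basic helix-loop-helix factors that keeps stem cells quiet, was at 2360 to 2620 in the wild types and fell to 1447 to 2044 (-0.61, adjusted p = 0.0318). Nes, the stem cell filament, was at 340.0 to 644 in the wild types and 573 to 717 in the mutants at that age, and was not called. Of 22 other genes of progenitors and neuroblasts, 0 were called at either age or for the interaction. Closest within an age was Bcl11b, a factor of granule cell maturation, at 15 months (-0.31, adjusted p = 0.0749), which was at -0.05 (adjusted p = 0.839) once GC content and length were corrected for. Bcl11a, a related zinc finger factor, was at 0.23 (adjusted p = 0.0753) at 15 months and was called with that correction (0.49, adjusted p = 0.0323). Of 28 signals that act on the niche, such as growth factors, Wnt and sonic hedgehog components, 0 were called. Vegfa at 5 months (-0.54, adjusted p = 0.0688) and Reln at 15 months (-0.57, adjusted p = 0.0540) were closest, and with the same correction Vegfa was called (-0.52, adjusted p = 0.0329).

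Genes of the young neuron's cytoskeleton and adhesion were called at 15 months in both directions, at 5 of 30 tested, where 6.02% of all genes were. Dclk1, a doublecortin-like kinase closely related to Dcx, was at 12153, 12597 and 11538 in the wild types and 8802, 9237 and 8412 in the mutants and fell by 0.46 on the log2 scale (adjusted p = 0.0268). Map1b, a microtubule-associated protein of growing axons, fell by 0.37 (adjusted p = 0.0341) and Pafah1b1 (Lis1), a dynein regulator of neuronal migration, by 0.28 (adjusted p = 0.0486). Marcksl1, an actin-regulating protein of young neurons, rose by 0.50 (adjusted p = 0.0285) and Dpysl4, a collapsin response mediator, by 0.37 (adjusted p = 0.0391). With GC content and length corrected for, 0 of these 5 passed the test, Dclk1 was at -0.11 and Pafah1b1 turned to 0.07. At 5 months 0 of 30 were called as deposited, and Map1b was called higher in the mutants with the correction (0.30, adjusted p = 0.0399). The list's median was 0.06 at 5 months and 0.15 at 15 months.

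Of 52 further genes of the cell cycle, 42 were tested at 5 months and 40 at 15 months, and 1 was called at each age. Tyms, the thymidylate synthase of DNA replication, was at 490, 329, 407 and 536 in the 5-month wild types and at 1127, 1016 and 2587 in the mutants, a rise of 1.73 on the log2 scale (adjusted p = 0.0248), with the highest value in the same mutant that was highest in Sox11 and Top2a. A processed pseudogene, Tyms-ps, lies elsewhere in the genome, and how reads were shared between them is not known here. At 15 months Tyms overlapped between the genotypes, at 546 to 680 and 394 to 777. Anln, a ring protein of dividing cells that is also made in oligodendrocytes, fell by 0.61 at 15 months (adjusted p = 0.0341; corrected for composition -0.44, adjusted p = 0.141). Cdk1, the kinase that drives mitosis, was at 10.1 to 20.2 in the 5-month wild types and 3.76 to 19.7 in the mutants, and Ccnb1, its cyclin partner, at 14.6 to 26.9 and 6.57 to 11.8. The list's median was -0.06 at 5 months and -0.09 at 15 months, against 0.00 and 0.02 for all genes.

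Lists of neighbouring cells moved by few genes. Among 12 genes of mature granule cells 0 were called at 5 months and 2 fell at 15 months, Dock10 by 0.67 (adjusted p = 0.0268) and Dsp by 0.41 (adjusted p = 0.0497), and the list's median went from 0.14 to -0.20. Neuroblasts bound for the olfactory bulb come from the ventricle wall and share Dcx, Sox4 and Sox11, and of 8 of their genes 1 was called, Etv1 at 15 months (-0.49, adjusted p = 0.0341). Their sum was 2457 to 2736 and 2516 to 2775 in wild types and mutants at 5 months, and 3219 to 3424 and 2681 to 3043 at 15 months, where the genotypes did not overlap, and none of the 8 was at 0 throughout. Etv1 was a large part of that sum, at 1504 to 1609 in the 15-month wild types and 985 to 1256 in the mutants. The list's median log2 difference at 15 months was -0.07, with 3 of 8 genes above 0. Of all single genes tested, 17.7% were lower without overlap at that age. Oligodendrocyte precursors divide and so carry Mki67 and Top2a as well, and of 9 of their genes Pdgfra was called at 15 months (-0.54, adjusted p = 0.0303), while the sum of the 9 overlapped, at 13504 to 13775 in the wild types and 13100 to 13994 in the mutants. The 10 microglial genes, from another dividing cell, summed to 17149 to 18510 and 16641 to 20224 at that age. Corrected for GC content and length, 0 of these 4 calls at 15 months held: Dock10 was at -0.35 (adjusted p = 0.242), Dsp at -0.40 (0.225), Etv1 at -0.19 (0.331) and Pdgfra at -0.27 (0.246). The part of any of these cells in the levels of the 8 genes was not tested.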

How the data were processed

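The deposited values of each age are a table of signal: normalized counts that the authors made with Salmon 0.11.1 on mm10 and DESeq2 size factors, per the labels. Their low values were whole multiples of 1 read in 12.2% to 87% of cases, under the 95% needed, so reads were not recovered, the depth is unknown, and no count test was run. The genes and lists were chosen with earlier results of these data known. limma 3.58.1 (R 4.3.3) was fitted to log2(normalized count + 1), with a trended prior, over genes with a mean of at least 10 in the libraries of the fit; p-values were Benjamini-Hochberg adjusted over all genes and a call was an adjusted p under 0.05. The ages were fitted separately, and an interaction over 13 libraries compared their genotype effects. Exact permutation tests used scipy 1.17.1. Fold changes are on the log2(value + 1) scale and understate those of low genes. Transcript lengths, GC content and positions came from GENCODE vM21 (GRCm38; 24399 of 25025 genes matched by symbol). The correction for them took a loess curve (span 0.3) from each library. Named besides the 8 genes were list genes called in any of these fits, in lists without a call the 2 with the smallest unadjusted p at either age, markers that show whether a cell type is present, and for Dcx and Mki67 the 5 genes with the highest correlation. Sex was not a covariate, since the labels do not give it per library. The code was tested on simulated data.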

Additional observations from a re-analysis of the deposited data

Results flagged for a closer look

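None of the 8 neurogenesis genes differed in its genotype effect between the ages by the limma interaction test at an adjusted p under 0.05. In the wider lists 13 genes did, and over all 15571 genes tested 269 (1.73%) did. Among genes of the young neuron's cytoskeleton, Dclk1 had an interaction of -0.57, Map1b of -0.72 and Dpysl4 of 0.55 on the log2 scale, each value being the mutant effect at 15 months minus that at 5 months. Map1b was at 13454 to 16183 in the 5-month wild types and 16648 to 21962 in the mutants, and at 23518 to 24840 and 17472 to 20216 at 15 months, so the genotypes changed places. In the cell cycle list, Tyms had -1.77. Mature granule cell genes gave -0.80 for Dock10 and -0.92 for Dsp, a desmosome protein. In glial lists, Itpr2 of newly formed oligodendrocytes had -0.73 and Itgam of microglia 0.77, and Tmem72 of the choroid plexus had 6.25. Genes induced by neuronal activity had the largest number, with Fos at 3.27, Npas4 at 2.01, Dusp1 at 2.01 and Junb at 1.55. After the correction for GC content and length, Itgam, Tmem72, Dusp1, Fos, Junb and Npas4 still passed the test and Dclk1, Map1b, Dpysl4, Tyms, Dock10, Dsp and Itpr2 did not.

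In the 4 wild types of 5 months, the 1 group large enough to examine, 0 of 11 genes had a mouse whose gap to the rest passed Dixon's 95% critical value.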

How the results depend on the processing

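Of 434 alternatives over 23 results of the 8 genes, 411 kept the direction and the side of the threshold, 21 turned the direction and 2 brought a difference past the threshold. The 2 were Sox11 at 5 months (0.68) and the Sox4 interaction (-0.68), both without 5-month mutant replicate 1, so the number of the 8 genes called was 0 to 1 when mice were left out in turn at 5 months and for the interaction. With 3 or 4 mice per group and an unknown depth, differences in genes such as Eomes, Mki67 and Top2a were measured with wide intervals.

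Leaving out mice in turn, the 5-month differences ranged from -0.47 to 0.15 for Dcx, -0.21 to 0.042 for Neurod1, -0.40 to 0.15 for Mki67 (all 3 turned without mutant replicate 1), -1.05 to 0.17 for Eomes (turned without wild type replicate 3) and -0.081 to 0.40 for Top2a (turned without mutant replicate 3). Sox11 at 15 months ranged from -0.023 (without mutant replicate 2) to 0.14. The interaction ranged from -0.52 to 0.10 for Dcx, -1.34 to 0.16 for Igfbpl1 and -0.18 to 0.075 for Neurod1. The correction for GC content and length turned the Dcx interaction to 0.17, and Pafah1b1 at 15 months to 0.067 alone and with the replicate block, and rescaling by trimmed means turned the Neurod1 interaction to 0.00099; the cause was not tested.

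The number of genes called over the whole table moved more. At 5 months it was 354, and 845 with the GC and length correction, 738 in one fit of all 13 libraries, and 7 to 901 without single mice (7 without wild type replicate 3, 901 without mutant replicate 2). At 15 months it was 935, and 578 with no filter on low values (more genes tested), 27 with the GC and length correction, 183 in one fit, and 1 to 1526 without single mice (1 without wild type replicate 3, 1526 without mutant replicate 2). For the interaction it was 269, and 145 with no filter, 116 with the GC and length correction and 33 to 2097 without single mice (2097 without 5-month mutant replicate 1). Calls at 15 months were 67.0% lower in the mutants, against 56.9% after rescaling by trimmed means and 78.7% after quantile normalization, and 0 of the 7 genes were called under either.

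The replicate numbers do not pair the mice: same-numbered mice correlated at -0.0906 to 0.0577 at 5 months and 0.0133 to 0.164 at 15 months. With the replicate number as a block, 9 genes were called at 5 months, 1595 at 15 months and 3 for the interaction, and with the block and the GC and length correction 157, 4 and 10, and 0 of the 8 genes in any of these. The Dcx interaction was 0.25 with both. In the fits at 5 months the block left wild type replicate 4 without a partner.

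Read per 1000 of Rbfox3 in place of Prox1, the wild type log2 ratio of 15 over 5 months was 0.32 for Dcx, 0.15 for Sox4, -0.039 for Sox11, 0.37 for Neurod1, 0.19 for Mki67 and -0.49 for Top2a, all higher than per Prox1.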

Other observations

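Markers of other cells in the same libraries were called at a few genes. The 10 activity-induced genes summed to 13710 to 27263 in the 5-month wild types and 11257 to 15120 in the mutants, and to 12172 to 12608 and 16347 to 32523 at 15 months. By limma, Npas4 fell by 0.72 at 5 months (adjusted p = 0.0359) and 5 of the 10 rose at 15 months, among them Junb by 0.95 (adjusted p = 0.0268) and Fos by 1.60 (adjusted p = 0.0405). Corrected for GC content and length, Npas4 alone of the 5 was still called at 15 months (adjusted p = 0.0470), with Junb at an adjusted p of 0.0706, Fos at 0.123, Dusp1 at 0.125 and Arc at 0.165. At 5 months the correction kept the call of Npas4 (adjusted p = 0.0170). It also brought calls of Fos (-1.62, adjusted p = 0.0439) and Junb (-0.66, adjusted p = 0.0405) there. Of the 15 choroid plexus genes, 6 were called lower in the 5-month mutants, and Ttr, the plasma transport protein that the tissue secretes, had the largest difference at -5.75 (adjusted p = 0.0373). Among pyramidal cell genes, Pou3f1 rose by 0.44 at 5 months (adjusted p = 0.0428) and Man1a fell by 0.52 at 15 months (adjusted p = 0.0268). The microglial receptor gene Cx3cr1 fell by 0.31 at 15 months (adjusted p = 0.0493), Itgam fell by 0.52 at 5 months (adjusted p = 0.0429), and the endothelial tight junction gene Cldn5 rose by 0.37 at 15 months (adjusted p = 0.0354). The same correction ended the calls of Pou3f1 (0.29, adjusted p = 0.109), Man1a (-0.32, 0.125), Cx3cr1 (-0.20, 0.253) and Cldn5 (0.18, 0.291) and left that of Itgam (adjusted p = 0.0250). None of the 6 thalamic genes tested was called as deposited, and Prkcd at 5 months was closest (-0.84, adjusted p = 0.0514). With the correction Prkcd was called there (-0.82, adjusted p = 0.0311).

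Draxin, an axon guidance gene also seen in neuroblasts, was at 13.2 to 24.4 in the 15-month wild types and 7.45 to 11.5 in the mutants, without overlap, and at 20.7 to 35.8 and 23.5 to 61.4 at 5 months. At 15 months 17.7% of all genes tested were lower in the mutants without overlap. Insm1, a progenitor gene, was higher without overlap at that age, at 282 to 330 in the wild types and 344 to 437 in the mutants, and was not called. In either direction, 34.1% of all genes tested did not overlap there. Neurog2 was at 40.0 to 62.6 and 50.2 to 83.6, with overlap. Of the 22 progenitor and neuroblast genes tested at 15 months, 12 had a log2 difference above 0. Among the genes most like Igfbpl1, which were looked up after its values were seen, were Eomes (r = 0.93), Cacng5 (0.86), Snupn (0.85) and Lrrc28 (0.85) over the 13 libraries, and among those most like Eomes were Igfbpl1, Prdm12 (0.87), Lbhd2 (0.86) and Sp8 (0.86). Sp8, a factor of interneurons and of neuroblasts bound for the olfactory bulb, was at 36.8 to 75.3 in the 15-month wild types and 26.4 to 37.2 in the mutants.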
